A study of Mus musculus with 7 samples.

Results

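The genes described here carry fatty acids into the muscle fiber and store, mobilize and oxidize them. The set was a fixed list of 54 gene symbols, chosen with earlier results of these data known. Each member was found on the array by its probe's gene name or by the current symbol of its RefSeq transcript. The members were sorted into 7 steps by the known role of their product. Of the 31131 genes on the array 16577 were tested, among them 53 of the 54 members. The only probe of Acsl3, an acyl-CoA synthetase, was not well above background on enough arrays.

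RNA was taken from the quadriceps of C57Bl6J mice aged 3 months, an age before motor dysfunction in this line, and 1 Agilent single-dye array was hybridized per mouse. There were 4 wild type (WT) mice and 3 AR113Q mice, a knock-in model of spinal and bulbar muscular atrophy in which a humanized androgen receptor gene carries an expanded CAG repeat. The knock-in is present in the whole body and not in muscle alone, and the RNA came from whole quadriceps with the vessels, nerve and fat in it. The controls are WT by their labels, but the study's text also speaks of control knock-in mice whose repeat is shorter, and the design text adds the letters NCD to the name of the AR113Q line without saying what they stand for. A level below is a quantile normalized log2 intensity, which can be compared between arrays but not between probes, and a log2 fold change is AR113Q minus WT, with its standard error given as SE. A gene "rose" or "fell" at an adjusted p of at most 0.05 in limma, and it was a differentially expressed gene (DEG) if its absolute log2 fold change was also at least 1.

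Long-chain fatty acids enter the fiber through transport proteins, are bound to coenzyme A, and are either esterified and stored as triglyceride in lipid droplets or passed on to mitochondria. Carnitine palmitoyltransferase 1 on the outer mitochondrial membrane loads them onto carnitine and is held back by malonyl-CoA. Inside, the acyl chain is shortened in repeated rounds of dehydrogenation, hydration, a further dehydrogenation and thiolysis, while peroxisomes shorten very long and branched chains. In oxidative fibers these steps are more active than in fast glycolytic fibers, which make up most of the quadriceps.

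The probes of the type I acyl-CoA thioesterases Acot1 and Acot2, which rose from a dim level in WT mice, are shown by the first 30 of their 60 bases, because the genes are neighbouring paralogs. They are followed by both kept probes of Cpt1a, which gave log2 fold changes of different size. All letters are in lower case since no base is singled out.
Acot1: tctatggaaactggagctatccaagaaaag
Acot2: ggggaaacctcatatatattatcacaatgt
Cpt1a probe 1: tcttaggactacttgctaacctctgttact
Cpt1a probe 2: acagtcccccgaagtcttttgaatcggctc
On the plus strand of mm9, the Acot1 probe lies at chr12:85358561-85358620 and the Acot2 probe at chr12:85334071-85334130. The starts of these probes are 24490 bases apart, and the longest run of bases that they share is 6. The Cpt1a probes lie at chr19:3385374-3385433 (probe 1, the brighter one, which represents the gene) and chr19:3384060-3384119 (probe 2). Whether other thioesterase transcripts bind the Acot1 and Acot2 probes was not tested. For Acadm the array annotation places the probe on chromosome 11, whereas RefSeq places the gene on chromosome 3, so its value is uncertain.

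Genes of fatty acid oxidation are known targets of peroxisome proliferator-activated receptors, which bind with a retinoid X receptor to a direct repeat with a spacing of 1 base. The motif AGGTCANAGGTCA was searched on both strands in the 250 bases before the RefSeq start (GRCm38.p6), which were given for 54 promoters of 44 members. With at most 2 of its 12 fixed letters differing, it was found before 4 members (7.41% of the members' promoters) and in 3.24% of all 32851 promoters of that length. It was in 0 of the members' promoters with at most 1 differing letter, against 0.484% of all promoters. The 4 stretches are shown 5′ to 3′ on the strand of the gene, with the matching 13 bases in capitals and 20 bases on each side.
Cd36: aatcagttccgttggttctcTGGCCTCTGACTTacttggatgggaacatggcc
Echs1: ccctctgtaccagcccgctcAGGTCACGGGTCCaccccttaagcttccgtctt
Etfa: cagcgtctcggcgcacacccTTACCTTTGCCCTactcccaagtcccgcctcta
Plin2: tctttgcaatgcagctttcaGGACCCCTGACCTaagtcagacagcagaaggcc
All of these genes lie on the minus strand, at chr5:17835927-17835979 (Cd36), chr7:140116472-140116524 (Echs1), chr9:55512288-55512340 (Etfa) and chr4:86670252-86670304 (Plin2). The match is on the opposite strand of the gene for Cd36, Etfa and Plin2. As given below, Echs1, Etfa and Plin2 rose and Cd36 did not pass the threshold. A match of letters is not a bound site.

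On all arrays the muscle fiber markers were bright, with a mean level over 8 genes of 15.97 to 16.26 in WT and 15.62 to 16.32 in AR113Q mice. Markers of slow or oxidative fibers (Myh7, Myh2, Tnni1, Tnnt1, Tnnc1, Myl2, Myl3 and Atp2a2) split the arrays in another way than genotype. Their mean level was 11.46 on WT replicate 2, 11.31 on WT replicate 3 and 12.83 on AR113Q replicate 3, and between 7.21 and 7.81 on the other 4 arrays. Of these 8 genes Atp2a2 alone passed the threshold, with a log2 fold change of 1.42. AR113Q replicate 3 also had the highest level of all 7 arrays for 31 of the 53 members. The leading members are therefore given with their level on each array, and counts of members also over the 4 arrays low in these markers, an alternative added after the data were examined. The arrays lay on 5 slides, and slide 2, with WT replicate 2 and AR113Q replicate 1, was the only one shared by the genotypes.

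Across all steps 30 members passed the threshold (43.6% of all genes did), of which 22 rose and 8 fell, and 23 did not pass. Among all 16577 genes tested 21.0% rose and 22.6% fell at the same threshold, against 41.5% and 15.1% of the members. Since the list was chosen with earlier results of these data known, such shares describe the members and are no test. The members held 16 DEGs, where 24.3% of all genes were DEGs. There were 12 that rose and 4 that fell, or 22.6% and 7.55% of the members, against 11.2% and 13.1% of all genes. The median log2 fold change was 0.40 over the members and -0.01 over all genes, and it was positive for 38 of 53 members and for 49.4% of all genes. All AR113Q levels lay above all WT levels in 25 members and below them in 8, while among all genes 24.2% and 25.1% were separated in these directions. The groups did not overlap in 33 members, against 49.3% of all genes, and these include the 30 members that passed the threshold. On the 4 arrays low in slow fiber markers 16 members rose and 6 fell, while 14.2% and 15.2% of all genes did. With the slow fiber marker mean as a covariate in limma 25 members rose and 8 fell, against 21.5% and 23.1% of all genes. The number that fell moved with single arrays, as it was 5 without AR113Q replicate 1, 5 without AR113Q replicate 2 and 11 without AR113Q replicate 3. In the same fits 19.0%, 19.6% and 23.2% of all genes fell. In the plot of log2 fold changes by step, increases are present in every step except activation. The counts per step below stand beside the 21.0% of all genes that rose and the 22.6% that fell, and most steps hold few genes. The size of the changes in dim genes rested on how the array background was treated. Of the 30 members that passed, 6 had a log2 fold change more than 1.5 times smaller with normexp, without background subtraction and with the authors' normalized values, namely Acot1, Abcd2, Ces1f, Lipe, Acsl5 and Decr2.

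**Figure D1:**
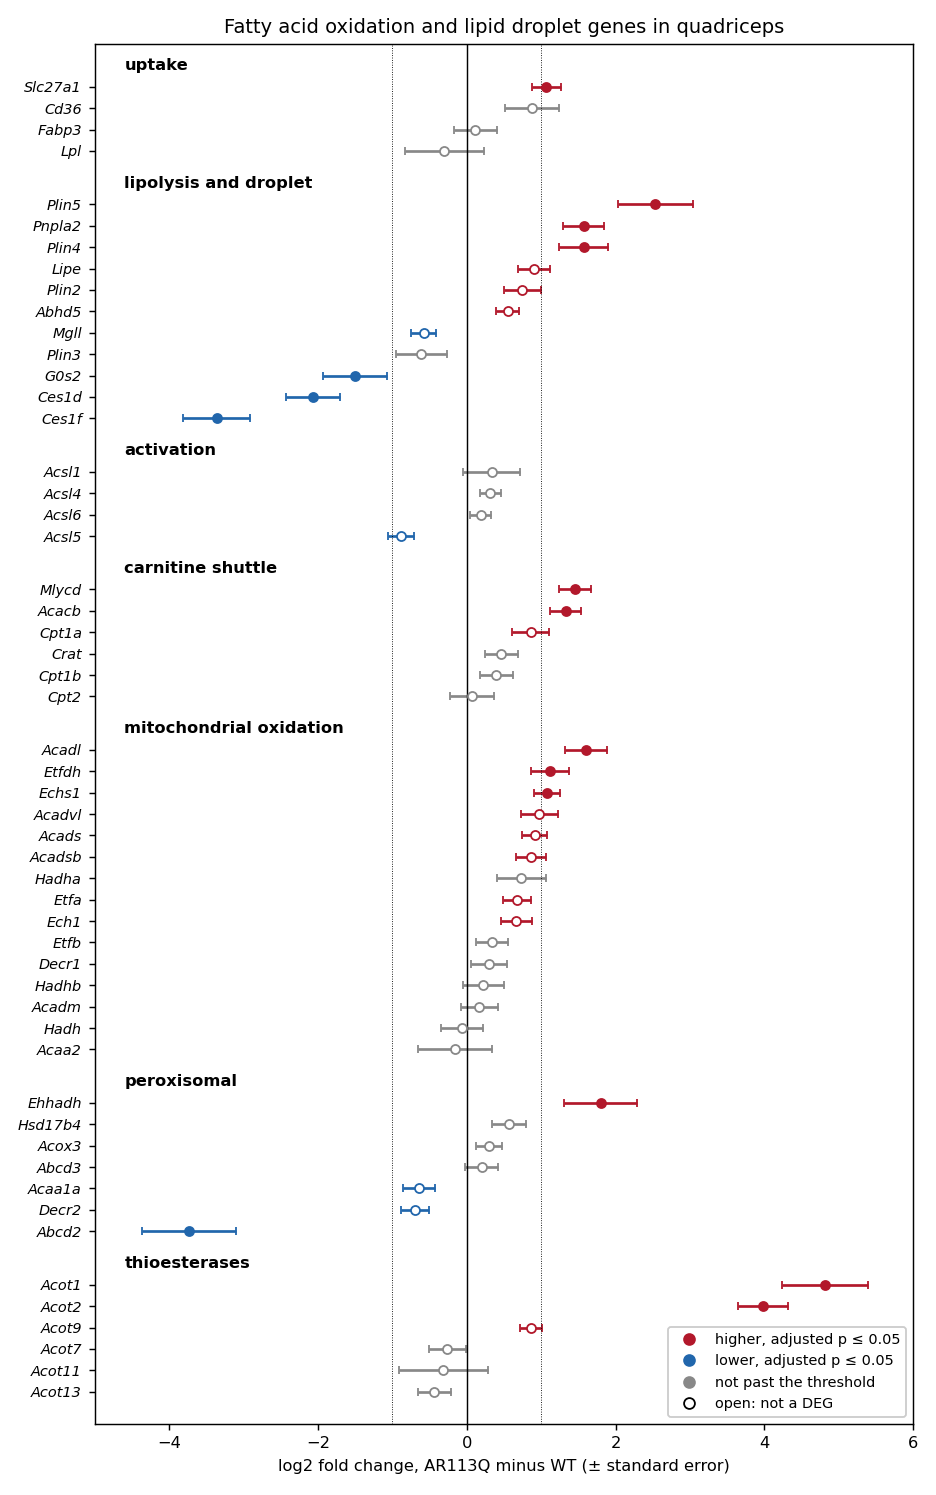
Log2 fold change (AR113Q minus WT) with its standard error for the 53 members tested, grouped by step; red and blue points passed an adjusted p of at most 0.05, filled points are DEGs, and dotted lines mark a log2 fold change of 1 in either direction. The values run from -3.73 (Abcd2) to 4.82 (Acot1), both from probes that were not well above background on every array, and no member of the carnitine shuttle or of mitochondrial oxidation fell.

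Among the 4 uptake genes only Slc27a1 rose, and the median log2 fold change of the step was 0.50, or 0.11 without AR113Q replicate 3. Slc27a1 encodes fatty acid transport protein 1, which is found on the sarcolemma. Its level was 9.43, 9.60, 10.08 and 9.93 on WT replicates 1 to 4 and 10.88, 10.68 and 10.93 on AR113Q replicates 1 to 3. All AR113Q mice lay above all WT mice, with a log2 fold change of 1.07 (SE 0.19, adjusted p = 0.00334 by limma). Cd36, the fatty acid translocase, had a log2 fold change of 0.88 and an adjusted p of 0.0827 in limma. Its AR113Q level was 11.56, 11.40 and 12.85, with the highest value on AR113Q replicate 3, and WT lay between 10.56 and 11.30. With the slow fiber marker mean as a covariate the adjusted p of Cd36 was 0.0165 and the log2 fold change was again 0.88, while without AR113Q replicate 3 they were 0.185 and 0.42. Fabp3, the fatty acid binding protein of heart and muscle (log2 fold change 0.11), and Lpl, the lipase that releases fatty acids from lipoproteins (-0.30), did not pass the threshold. Lpl was spread widely in AR113Q mice, with levels of 12.21, 12.55 and 14.59. Without AR113Q replicate 3 its log2 fold change was -1.04 with an adjusted p of 0.0177 in limma.

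The lipid droplet and lipolysis genes moved in both directions, with 6 of 11 members higher and 4 lower in AR113Q mice, so that the step median of 0.55 says little of single genes. The increases were those of 3 perilipins, of the lipases Pnpla2 and Lipe and of Abhd5, the coactivator of Pnpla2. The inhibitor of Pnpla2, the lipase Mgll and 2 carboxylesterases fell. Plin5, the perilipin that coats droplets in oxidative tissue and ties them to mitochondria, had levels of 10.13, 11.59, 12.06 and 11.56 in WT and 13.13, 13.75 and 14.74 in AR113Q mice. The lowest AR113Q mouse was above the highest WT mouse, and the log2 fold change was 2.54 (SE 0.51, adjusted p = 0.00516 by limma). Plin4, which coats small nascent droplets and is abundant in fat and muscle, was measured at 13.75, 15.20, 14.07 and 14.76 in WT and at 16.05, 16.03 and 15.97 in AR113Q mice. Its AR113Q levels were nearly equal whereas WT spread over more than a log2 unit, and the log2 fold change was 1.57 (SE 0.33, adjusted p = 0.00633). The Plin5 and Plin4 probes are neighbours on the minus strand of mm9, at chr17:56251025-56251084 and chr17:56240055-56240114. Plin2, the perilipin found on droplets of most cells, rose by a log2 fold change of 0.75 (0.47 without AR113Q replicate 3). Plin3 did not pass the threshold (-0.61, or -0.99 with an adjusted p of 0.0249 in limma without AR113Q replicate 3). With each array left out Plin3 was at -0.99 to -0.26. The call of Plin2 was lost without any single array except AR113Q replicate 1, with adjusted p-values of up to 0.0967 in limma, and its log2 fold change was 0.32 (adjusted p = 0.289) on the 4 arrays low in slow fiber markers.

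Pnpla2 encodes adipose triglyceride lipase, which starts the breakdown of stored triglyceride. Its level was 11.35, 12.18, 11.46 and 11.59 in WT and 12.76, 13.22 and 13.66 in AR113Q mice, with a log2 fold change of 1.57 (SE 0.27, adjusted p = 0.00276 by limma). G0s2, the protein that inhibits this lipase, was measured at 9.84, 9.29, 10.80 and 10.06 in WT and at 8.69, 7.66 and 9.15 in AR113Q mice. It was lower in all 3 AR113Q mice, by a log2 fold change of -1.50 (SE 0.43, adjusted p = 0.0229), but the call was lost without AR113Q replicate 1 (adjusted p = 0.0510) and without AR113Q replicate 2 (0.0723). Abhd5, the coactivator of the lipase, rose by 0.55 (log2), as did one of its 2 other probes (0.72), while the remaining probe did not pass the threshold (-0.27). The call of Abhd5 was lost without WT replicate 1, WT replicate 4 or AR113Q replicate 1, with adjusted p-values of 0.0521 to 0.0570 in limma. Of the enzymes that act after Pnpla2, the hormone-sensitive lipase Lipe rose by 0.90 (0.70 with an adjusted p of 0.0706 in limma on the 4 arrays low in slow fiber markers) and the monoglyceride lipase Mgll fell, with a log2 fold change of -0.58. All 3 probes of Mgll fell, the others with log2 fold changes of -0.77 and -0.83. Mgll lost its call without WT replicate 2, WT replicate 4, AR113Q replicate 1 or AR113Q replicate 2, with adjusted p-values of 0.0611 to 0.0760.

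Ces1d and Ces1f, carboxylesterases of one gene cluster that hydrolyze triglyceride and other esters, were both lower in AR113Q mice. Ces1d was measured at 10.72, 10.78, 10.75 and 10.55 in WT and at 8.10, 8.16 and 9.66 in AR113Q mice, with a log2 fold change of -2.06 (SE 0.36, adjusted p = 0.00284 by limma). WT mice differed little, and the highest AR113Q level was that of replicate 3. Ces1f was measured at 6.60, 7.65, 7.04 and 6.53 in WT and at 4.66, 2.84 and 3.28 in AR113Q mice, and its log2 fold change was -3.36 (SE 0.45, adjusted p = 0.000925). Its probe was well above background on all 4 WT arrays and on 1 of 3 AR113Q arrays, so that the size of the decrease is less certain than its direction. With normexp it was -1.13 and with the authors' normalized values -0.71. Cross-hybridization among these paralogs was not tested.

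Markers of adipocytes, which also express many of the droplet and lipolysis genes, were lower in AR113Q muscle. Of 7 markers 6 fell, among them Adipoq by a log2 fold change of -2.71, Cfd of -1.76 and Cidec of -1.02. Adrb3, another of them, was well above background in WT mice only, which leaves the size of its decrease uncertain, and Lep (-1.04) did not pass the threshold. Other pathway genes that adipocytes express were split, and those named here were picked after their values were seen. Fabp4 had a log2 fold change of -0.21 (adjusted p = 0.325 by limma) and Pparg one of -0.01 (adjusted p = 0.969). Scd2, with -1.90 (adjusted p = 0.000599), and Thrsp, with -1.32 (adjusted p = 0.00799), fell. The mean level of the list was 9.49 to 10.75 on the WT arrays and 7.52 to 8.27 on the AR113Q arrays, without overlap, and Adipoq was still at 9.7, 8.3 and 9.5 in the AR113Q mice. In whole muscle fewer adipocytes and less of these transcripts per cell cannot be told apart, and the part of this difference in the decreases of Ces1d, Ces1f, G0s2 and Mgll was not tested.

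Of the 4 acyl-CoA synthetases tested, which bind long-chain fatty acids to coenzyme A, only Acsl5 passed the threshold. It fell by 0.88 (log2), with a level of 7.12 to 7.32 in WT and 6.04 to 6.54 in AR113Q mice (SE 0.17, adjusted p = 0.00431 by limma). Acsl1, the main form in muscle, had a log2 fold change of 0.33, Acsl4 of 0.32 and Acsl6 of 0.19. Acsl1 was at 13.44, 13.02 and 14.69 in AR113Q mice, and only replicate 3 lay above the WT range of 12.94 to 13.72. The step median was 0.25 with all arrays and 0.01 without AR113Q replicate 3. Acsl4 was higher in every AR113Q mouse than in any WT mouse, and it passed the threshold with the authors' normalized values (adjusted p = 0.0168).

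In the carnitine shuttle 3 of 6 members rose and none fell, and the step median was 0.66. Malonyl-CoA, the inhibitor of carnitine palmitoyltransferase 1, is made at the mitochondrial surface by the product of Acacb and broken down by that of Mlycd. Mlycd had levels of 12.59, 13.09, 12.74 and 13.09 in WT and 14.70, 14.07 and 14.23 in AR113Q mice (log2 fold change 1.46, SE 0.21, adjusted p = 0.00133 by limma). Acacb had levels of 12.66, 13.40, 13.06 and 13.11 in WT and 14.64, 14.19 and 14.35 in AR113Q mice (log2 fold change 1.33, SE 0.21, adjusted p = 0.00177). Both genes were thus highest in AR113Q replicate 1, without overlap between genotypes. The second probe of Acacb rose as well, with a log2 fold change of 1.69.

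Cpt1b encodes the muscle form of carnitine palmitoyltransferase 1 and Cpt1a the form of liver and most other tissues. Cpt1b was measured at 12.33, 12.61, 12.62 and 12.41 in WT and at 12.77, 12.51 and 13.39 in AR113Q mice. The genotypes overlapped, and the log2 fold change of 0.40 (SE 0.22, adjusted p = 0.184 by limma) did not pass the threshold and was 0.15 without AR113Q replicate 3. The probe that represents Cpt1a was at 8.59, 8.93, 8.32 and 8.57 in WT and at 9.91, 9.49 and 8.98 in AR113Q mice. It rose by a log2 fold change of 0.86 (SE 0.25, adjusted p = 0.0229), and the highest WT and the lowest AR113Q array were nearly equal. The call was lost when WT replicate 1, 3 or 4, or when AR113Q replicate 1 or 2, was left out, with adjusted p-values of 0.0512 to 0.0692 in limma, and with the authors' normalized values (0.0587). The dimmer probe of Cpt1a, which lies closer to the start of the chromosome, rose by 2.29 (SE 0.27, adjusted p = 0.000545). The difference between the Cpt1a and Cpt1b changes was 0.46 (log2), which an exact two-sided permutation test did not separate from 0 (p = 0.286, 0.411 after adjustment over 6 pairs of members). It was 1.33 with the mean over probes, 0.22 with the authors' normalized values, and between 0.18 (without AR113Q replicate 1) and 0.95 (without AR113Q replicate 3) when each array was left out. Cpt2, the inner membrane enzyme of the shuttle (log2 fold change 0.07), and Crat, which moves short acyl groups (0.47), did not pass the threshold, although Crat did without AR113Q replicate 2 (0.69, adjusted p = 0.0289 in limma). Without AR113Q replicate 3 the log2 fold change of Crat was 0.28.

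**Figure D2:**
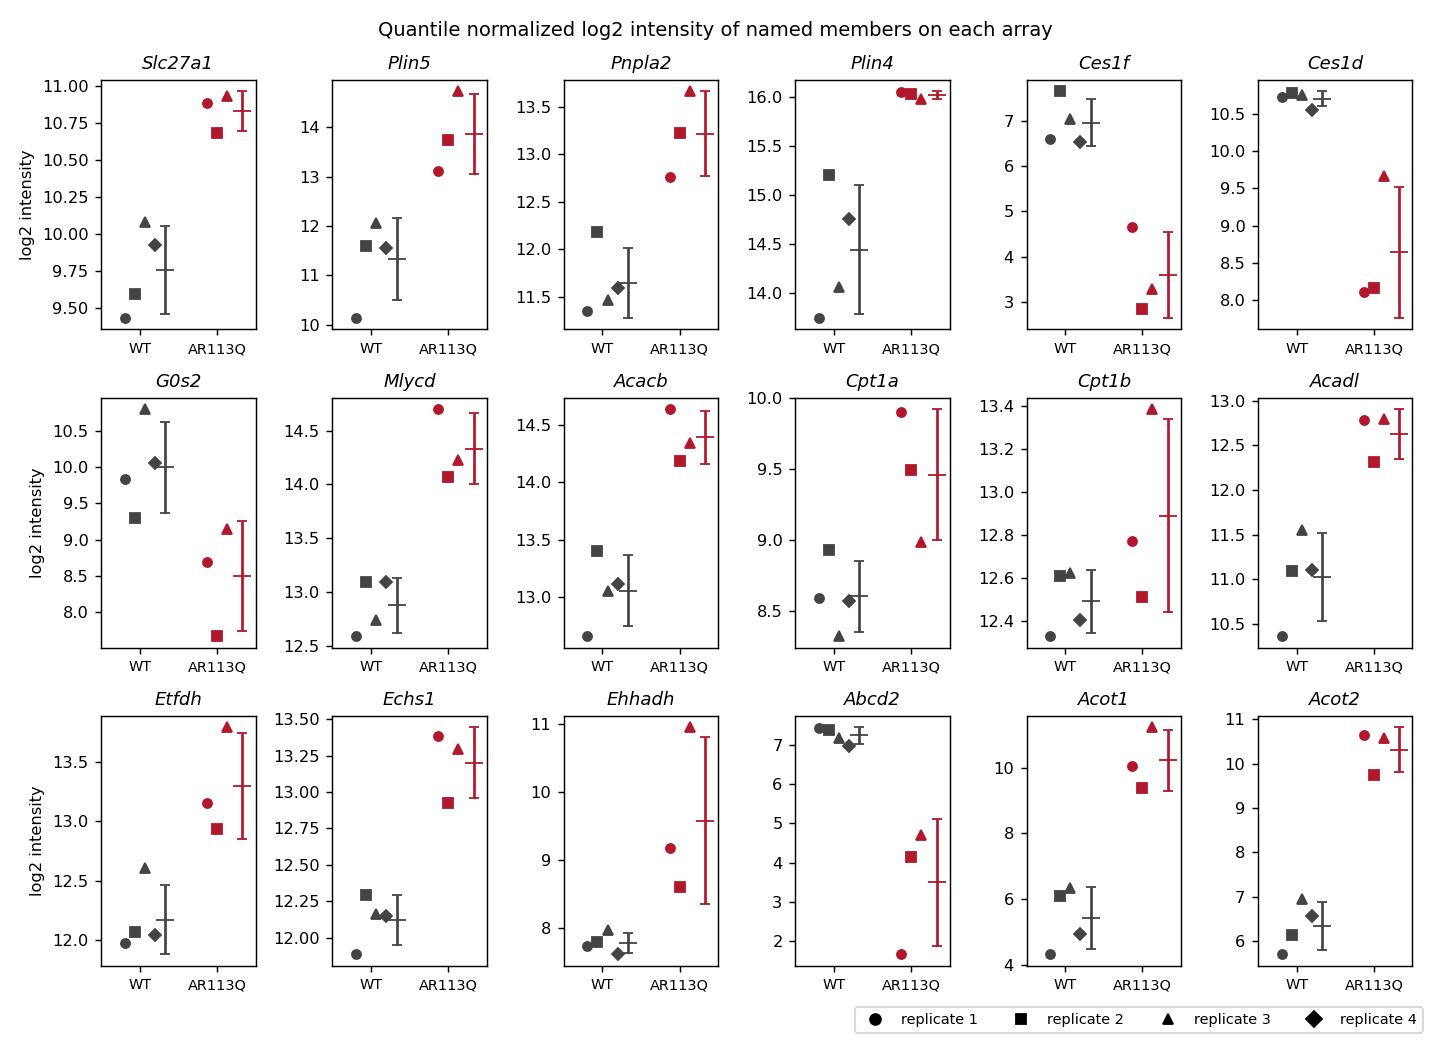
Quantile normalized log2 intensity on each array (symbols mark the replicates) for 18 members, with the mean and SD of 4 WT and 3 AR113Q arrays at the right of each group; the vertical scale differs between panels and does not start at 0. The genotypes do not overlap in any panel except that of Cpt1b. Beside Cpt1a and Cpt1b the panels show up to 3 DEGs of largest change in each direction per step, so this follows in part from their choice. Among all genes 49.3% do not overlap.

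The genes of mitochondrial beta-oxidation rose or did not pass the threshold, with 8 of 15 members higher, none lower and a step median of 0.68. Among all genes 21.0% rose and 22.6% fell. The increases included 4 members of the acyl-CoA dehydrogenases, the class that opens each round, and part of the route of their electrons. The dehydrogenase Acadm and the subunits of the trifunctional protein did not pass. Acadl, long-chain acyl-CoA dehydrogenase, was at 10.36, 11.09, 11.55 and 11.11 in WT and at 12.78, 12.31 and 12.80 in AR113Q mice. Its log2 fold change of 1.60 (SE 0.28, adjusted p = 0.00293 by limma) was the largest of the step. Etfdh, which hands the electrons of these dehydrogenases to the respiratory chain, was at 11.98, 12.07, 12.61 and 12.04 in WT and at 13.15, 12.93 and 13.79 in AR113Q mice (log2 fold change 1.12, SE 0.25, adjusted p = 0.00841). Echs1, the short-chain enoyl-CoA hydratase, was at 11.89, 12.30, 12.16 and 12.15 in WT and at 13.38, 12.93 and 13.30 in AR113Q mice (log2 fold change 1.08, SE 0.18, adjusted p = 0.00214). All 3 genes were separated between genotypes, and among AR113Q mice replicate 3 was the highest for Acadl and Etfdh and replicate 1 for Echs1.

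The very long-chain dehydrogenase Acadvl rose by 0.98 (log2), the short-chain dehydrogenase Acads by 0.91 and the short/branched-chain dehydrogenase Acadsb by 0.86. The electron carrier subunit Etfa rose by 0.68, and Ech1, an isomerase for unsaturated chains, by 0.67. A second and much dimmer probe of Acadsb had a log2 fold change of 3.23, so that the size of this increase is uncertain. Ech1 lost its call when WT replicate 1, 2 or 4, or when AR113Q replicate 2 or 3, was left out, with adjusted p-values of 0.0592 to 0.0830 in limma, and Etfa did so for WT replicates 1 and 2 and for AR113Q replicates 1 and 3, with 0.0508 to 0.0573. On the 4 arrays low in slow fiber markers the log2 fold change of Acadvl was 0.91 with an adjusted p of 0.0572. The members that did not pass had log2 fold changes from -0.16 for Acaa2, the last thiolase of the round, to 0.74 for Hadha, the alpha subunit of the trifunctional protein. Hadha was at 11.99, 11.45 and 12.87 in AR113Q mice against 11.15 to 11.76 in WT, and it passed with the slow fiber marker mean as a covariate (adjusted p = 0.0402) and without AR113Q replicate 2 (0.0290), but its log2 fold change was 0.35 without AR113Q replicate 3 (adjusted p = 0.262 in limma). Acaa2 was higher on AR113Q replicate 3 (15.42) than on any other array and lower on AR113Q replicate 1 (13.27) than on any other array. Hadhb (0.22), Acadm (0.17), Decr1 (0.30), Etfb (0.34) and Hadh (-0.06) made up the rest. With each array left out Decr1 was at 0.073 to 0.46 and Etfb at 0.13 to 0.55, and the second probe of Decr1 was at -0.0045.

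Mitochondrial content was followed by 15 genes of the respiratory chain, citrate cycle, import machinery and mitochondrial DNA upkeep. Of these 2 rose and 2 fell, the median log2 fold change was -0.11, and that of citrate synthase (Cs) was 0.03. Vdac3, one of the genes that fell, and Tomm20, which did not pass, have probes that the array annotation places on another chromosome than RefSeq places the gene, so that their values are uncertain. The mean level of the list was 14.05 to 14.22 in WT and 13.81 to 14.43 in AR113Q mice. As the plot of step means by array shows, mitochondrial oxidation lay above the WT mean by 0.51, 0.32 and 1.06 on AR113Q replicates 1 to 3, and by 0.31 on WT replicate 3, so that this WT array and AR113Q replicate 2 were nearly equal. On the same AR113Q arrays mitochondrial content differed from the WT mean by -0.33, -0.18 and 0.29.

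**Figure D3:**
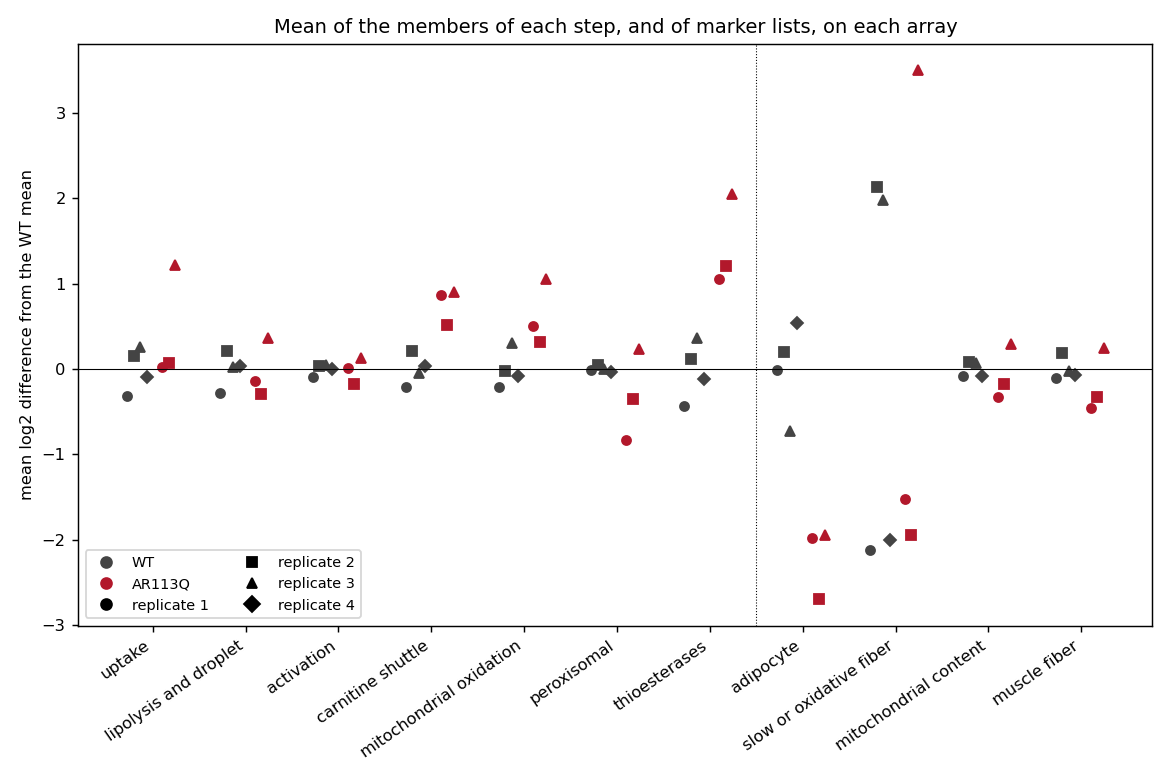
Mean log2 difference from the WT mean over the members of each step (left of the dotted line) and over 4 marker lists (right), for each of the 4 WT and 3 AR113Q arrays; symbols mark the replicates. AR113Q replicate 3 is the highest array in every step, WT replicates 2 and 3 and AR113Q replicate 3 stand apart in slow or oxidative fiber markers, and the adipocyte markers separate the genotypes.

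Peroxisomal members were split, as 1 of 7 rose and 3 fell, with a step median of 0.20 that was -0.04 without AR113Q replicate 3. Ehhadh, the bifunctional enzyme that carries the middle steps of peroxisomal oxidation, was at 7.74, 7.79, 7.97 and 7.61 in WT and at 9.17, 8.60 and 10.95 in AR113Q mice. Its log2 fold change was 1.80 (SE 0.48, adjusted p = 0.0183 by limma), and AR113Q replicate 3 was far above the other AR113Q arrays. Without it the log2 fold change was 1.11 (adjusted p = 0.00562). Abcd2, a transporter of very long-chain acyl-CoA into peroxisomes, was at 7.44, 7.37, 7.17 and 6.97 in WT and at 1.67, 4.14 and 4.71 in AR113Q mice. It was lower in all AR113Q mice, with a log2 fold change of -3.73 (SE 0.63, adjusted p = 0.00246). Its probe was not well above background on AR113Q replicate 1, and the size of the decrease is uncertain. The log2 fold change was -2.81 without that array, -1.28 with normexp and -0.82 with the authors' normalized values. This probe lies at chr15:90976565-90976624 on the minus strand of mm9. Abcd2 is also expressed in adipocytes, whose markers fell as given above, and the part of that difference here was not tested. The reductase Decr2 (log2 fold change -0.69) and the thiolase Acaa1a (-0.64) fell. With the authors' normalized values Decr2 had a log2 fold change of -0.20 and an adjusted p of 0.0626 in limma. Acaa1a lost its call without any single array except AR113Q replicate 3, with adjusted p-values of 0.0582 to 0.0958 in limma and a log2 fold change of -0.39 without AR113Q replicate 1. Hsd17b4 (0.56), Acox3 (0.30) and Abcd3 (0.20) did not pass the threshold, though Hsd17b4 was higher in every AR113Q mouse than in any WT mouse and passed under 6 alternatives, with adjusted p-values of 0.0304 (slow fiber marker mean as a covariate) to 0.0483 (intensity trend) in limma. Without AR113Q replicate 3 the log2 fold change of Hsd17b4 was 0.32 (adjusted p = 0.183). The 2 other probes of Acox3 disagreed, as 1 rose by 0.52 (adjusted p = 0.0443) and the other had a log2 fold change of -0.50 and did not pass.

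Of the thioesterases, which split acyl-CoA into free fatty acid and coenzyme A, 3 of 6 rose and none fell. Acot1, the cytosolic form, was at 4.31, 6.10, 6.33 and 4.93 in WT and at 10.07, 9.40 and 11.24 in AR113Q mice, a log2 fold change of 4.82 (SE 0.58, adjusted p = 0.000613 by limma). Acot2, the mitochondrial form, was at 5.70, 6.13, 6.94 and 6.57 in WT and at 10.64, 9.74 and 10.57 in AR113Q mice, a log2 fold change of 3.98 (SE 0.34, adjusted p = 0.000176). For both genes the lowest AR113Q level was above the highest WT level by more than the range within either genotype. In linear terms the intensity was 28.2-fold higher for Acot1 and 15.8-fold higher for Acot2. The Acot1 probe was well above background on 3 of 4 WT arrays, and both genes were dim in WT muscle. With normexp the log2 fold changes were 2.90 for Acot1 and 2.73 for Acot2, and with the authors' normalized values 2.45 and 2.36, below the 2.51 of Plin5 on that scale. Between the 2 arrays of slide 2 the log2 difference was 3.97 for Acot1 and 4.51 for Acot2. The fold changes of Acot2 and Acot1 differed by -0.84 (log2), with p = 0.229 in the exact permutation test (adjusted p = 0.411), which no pair could pass. This difference was -0.17 with normexp, -0.17 without background subtraction and -0.09 with the authors' normalized values. Acot9, another mitochondrial thioesterase, rose by 0.86, while Acot7 (-0.26), Acot11 (-0.31) and Acot13 (-0.44) did not pass the threshold. The value of Acot13 on WT replicate 1 was left out because its spot was marked as an outlier, and Acot13 passed without AR113Q replicate 3 (log2 fold change -0.64, adjusted p = 0.0268 in limma). The step median of 0.30 lay between these groups.

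Within pairs of related members the shift was largest between G0s2 and its target Pnpla2. The within-array difference of G0s2 minus Pnpla2 was -1.64 ± 0.92 (SD) in the 4 WT mice and -4.72 ± 0.76 (SD) in the 3 AR113Q mice, under an exact two-sided permutation test (p = 0.0571, adjusted p = 0.343). With 35 ways to arrange the arrays 0.0571 is the smallest p that this design allows, so that no pair could pass. Plin5 moved more than Plin4 by 0.96 (p = 0.171), and Acsl1 more than Acsl6 by 0.15 (p = 0.800), in the same exact test. The changes of Acacb and Mlycd differed by -0.12 (exact p = 0.343), with within-array differences of 0.18 ± 0.16 (SD) in the 4 WT mice and 0.06 ± 0.10 (SD) in the 3 AR113Q mice.

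Genes of the same pathways that are not members were read from 7 further lists with 104 entries, of which 93 were tested, 19 rose and 19 fell, shares close to the 21.0% and 22.6% of all genes. The median log2 fold change over them was 0.02. Of 16 other uptake and activation genes 2 rose and 3 fell, from Acss1, the mitochondrial acetyl-CoA synthetase (2.09), to Slc27a3, a fatty acid transport protein (-1.88). In mitochondrial oxidation and ketone use 3 of 14 rose and 2 fell, with Eci2, an enoyl-CoA isomerase, at 1.26 and the dehydrogenase Acad10 at -1.01. The other peroxisomal genes held 3 of 15 that rose, among them the branched-chain oxidase Acox2 (2.83), and 3 that fell, among them the carnitine octanoyltransferase Crot (-1.45). The Acox2 probe was well above background on 2 of the 4 WT arrays, so that the size of its increase is uncertain. Of 5 other thioesterases 2 rose and 1 fell, with Them4 at a log2 fold change of -1.37. The Acot5 probe was well above background in AR113Q mice only, and its intensity was at least 4.80-fold higher there (adjusted p = 0.0245 by limma), taking the lowest signal well above background on each WT array as the WT level. Acot5 was at 5.0 and 4.8 on AR113Q replicates 1 and 2 and at 8.5 on replicate 3, so that this bound rests largely on replicate 3.

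Among 21 other droplet and triglyceride genes 6 rose and 4 fell. Cidea, a droplet protein best known from brown fat, had the largest increase (log2 fold change 3.47, adjusted p = 0.00138 by limma), with levels of 7.0 to 9.4 in WT and 11.4 to 12.3 in AR113Q mice. The largest decrease was that of Fitm1, which takes part in droplet formation in muscle (-1.45). Of 10 genes of fatty acid synthesis 4 fell, against 22.6% of all genes, none rose, and the median log2 fold change was -0.90. Srebf1, the transcription factor of lipid synthesis, fell most, with levels of 6.3 to 7.4 in WT and 4.1 to 5.2 in AR113Q mice (log2 fold change -2.12, adjusted p = 0.00185). The adipocyte markers moved the same way as this list, and their part in it was not tested. Of 12 regulators 3 rose and 2 fell. The mitochondrial gene regulator Nrf1 had a log2 fold change of 1.30 and the retinoid X receptor Rxrg one of -2.38, with Rxrg at 12.8 to 13.6 in WT and 10.2 to 11.2 in AR113Q mice. Picked after their values were seen, Ppard rose by 1.10, and Ppara had a log2 fold change of 1.30 that did not pass (adjusted p = 0.0711).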

How the data were processed

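Quadriceps RNA of 4 WT and 3 AR113Q mice was measured on 7 single-dye arrays, 1 mouse each, and p-values measure the spread between these mice. The authors extracted the spots with Agilent Feature Extraction 10.7.3.1. The scanner files that the authors deposited hold a background-subtracted intensity per spot, not normalized between arrays, and the table of log2 values that the authors deposited is described as quantile normalized. Dim spots are most affected by this subtraction, which widens their spread on the log2 scale. Between 47.6% and 55.8% of 39429 probes were well above background on an array, and 0 spots were saturated. The number of arrays limits the precision.

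Here control and outlier spots were dropped, the background-subtracted intensities were put on the log2 scale and quantile normalized, and spots were averaged per probe. At least 3 of the 7 arrays had to show a probe well above background in at least 50% of its spots, and each gene was represented by its brightest kept probe. RefSeq accessions named 28330 probes (GRCm38.p6 gene table), and the array files named the rest. Probe positions are on mm9, and whether a probe lies in an exon, intron or UTR was not analysed here. The genotypes were compared by lmFit and eBayes of limma (version 3.58.1, R 4.3.3), and p-values were adjusted by Benjamini-Hochberg over the 16577 genes. The procedure was tested on simulated data: with 200 of 16577 genes changed by 2 (log2), 76% were recovered with 7 false calls, and with 200 changed by 1 (log2), 15% with 1 false call. In the data 43.6% of all genes passed, and the adjustment depends on the share of changed genes. The recovered shares therefore do not give the power of the comparison made here. Within-array differences of 6 pairs were compared by exact permutation (scipy 1.17.1).

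Levels on every array are given for Cpt1a, Cpt1b and up to 3 DEGs in each direction per step with the largest log2 fold change. Other members are given by log2 fold change, other pathway lists by their extremes among genes past the threshold, and marker lists (muscle fiber, adipocyte, endothelial, macrophage, fibroblast, erythrocyte, slow or oxidative fiber, mitochondrial content) by counts and mean level. The members and lists were chosen with earlier results of these data known. The alternatives were 75th percentile scaling, normexp background correction with an offset of 50, no background subtraction, the authors' normalized values, no or a stricter filter, the mean over probes, outlier spots kept, an intensity trend, array weights, slide or replicate number as a block, and each array left out. Both settings on slow fiber markers were added after the data were examined.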

Additional observations from a re-analysis of the deposited data

Results flagged for a closer look

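Etfdh, the electron transfer flavoprotein dehydrogenase, had a level of 12.61 on WT replicate 3, which lay far from the other WT arrays, the nearest at 12.07. It was 1 of 52 members with 4 WT values that stood out in this way, where chance gives about 1 in 20. The lowest AR113Q level of Etfdh, 12.93, was above it.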

How the results depend on the processing

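The 30 members past the threshold kept their direction under each alternative in which they were tested, and 18 of them, with 14 of the 16 DEGs, stayed past it except with slide as a fixed effect. Acot1, Abcd2 and Ces1f were not tested with the filter on all arrays. The other DEGs were Ehhadh (adjusted p = 0.0529 in limma without a filter on dim probes) and G0s2. When slide was fitted as a fixed effect, so that slide 2 alone compares the genotypes, limma called 0 members and 0 other pathway genes in either direction, DEGs included, and 0 of all 16577 genes. An unadjusted p under 0.05 was then found for 20 of 53 members (37.7%) and 37.4% of all genes. In this fit the residual spread comes from WT replicates 3 and 4 alone, which shared slide 4, so its p-values do not measure the spread between mice of each genotype. The sign of the 30 members was kept, as it had to be where the genotypes do not overlap. The medians were then 0.75 for the carnitine shuttle, 0.76 for mitochondrial oxidation, 0.39 for droplets, 0.11 for thioesterases, -0.0543 for uptake, 0.0416 for activation and -0.258 for the peroxisomal step. The replicate numbers did not pair the samples (correlations of deviations 0.037, -0.021 and 0.156). With the replicate number as a block 18 members rose and 5 fell, 13 and 4 of them as DEGs. In that fit 16.1% of all genes rose, 17.3% fell and 24.1% were DEGs. Of all genes 4030 were DEGs, against 1365 of 14883 with the authors' values, 1751 with normexp and 1904 without background subtraction. Members that fell as DEGs were 2 with the authors' values and 2 with the filter on all arrays. Other pathway DEGs were 7 higher and 7 lower with the authors' values, and 8 lower with normexp or without background subtraction. The droplet median was 0.33 with the mean over probes and 0.32 on the 4 arrays low in slow fiber markers, the carnitine median was 0.96 with the mean over probes, and the thioesterase median was -0.26 with the filter on all arrays. The activation median was 0.20 with normexp and without subtraction, 0.19 with the authors' values and without a filter, 0.37 with the mean over probes, 0.057 with array weights and 0.14 on those 4 arrays. The cause was not tested.

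With each array left out, 17 to 21 members rose and 5 to 11 fell, with 10 to 15 and 3 to 5 DEGs. Of all genes 16.8% to 21.7% rose and 17.6% to 23.2% fell in these fits, and 20.9% to 26.1% were DEGs. The medians were 0.0096 to 0.26 for activation, 0.14 to 0.68 for thioesterases, 0.11 to 0.69 for uptake and -0.04 to 0.37 for the peroxisomal step, each lowest without AR113Q replicate 3. Acsl1 minus Acsl6 was then -0.33 to 0.43. Acacb minus Mlycd was 0.054 with the mean over probes. Members not past the threshold also changed sign. With array weights Fabp3 was at -0.00147, Acsl1 at -0.00707 and Cpt2 at -0.0296. With slide fixed they were at -0.37, -0.11 and -0.57, Hadhb at -0.21 and Abcd3 at -0.26. Cpt2 was at -0.00681 with normexp and -0.00626 without subtraction, Acadm at -0.0456 on the 4 arrays, and Hadh at 0.0438 with 75th percentile scaling. With each array left out the ranges were -0.21 to 0.32 for Fabp3, -1.04 to 0.15 for Lpl, -0.15 to 0.69 for Acsl1, -0.22 to 0.25 for Cpt2, -0.0835 to 0.32 for Acadm, -0.41 to 0.12 for Hadh, -0.0811 to 0.38 for Hadhb, -0.79 to 0.29 for Acaa2, -0.0375 to 0.37 for Abcd3, -0.53 to 0.0216 for Acot7 and -1.01 to 0.43 for Acot11.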

Other observations

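Markers of other cell types differed between genotypes outside the steps described. Of 5 fibroblast genes 3 fell, Col1a1 by a log2 fold change of -3.27, Pi16 of -2.98 and Col1a2 of -2.25, while Dcn had a log2 fold change of 0.41 and did not pass the threshold. The mean level of this list was 12.85 to 13.40 in WT and 10.61 to 11.95 in AR113Q mice. Of 6 macrophage genes 2 fell, Adgre1 (-1.94) and Csf1r (-1.15), and Cd163 rose by 1.18, with mean levels of 8.89 to 9.65 in WT and 8.64 to 9.25 in AR113Q mice. Of 6 endothelial genes 2 rose, Cldn5 by 1.30 and Pecam1 by 0.60, and the mean levels were 8.90 to 9.16 and 9.03 to 9.56.

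Erythrocyte genes (Hba-a1, Hbb-b1 and Alas2) were uneven among WT mice, with mean levels of 13.36 on WT replicate 3 and 14.42 on WT replicate 4 and of 11.58 on the others, and 11.68 to 12.00 in AR113Q mice. None of the 3 passed the threshold. In the muscle fiber list Ckm, the muscle creatine kinase, fell by 0.80 (log2) and the other 7 did not pass.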
